A study of Mus musculus with 93 samples.

Results

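The step from Precursor cells to Early Immature Neurons of the mouse olfactory epithelium was described in 36 single cells, 27 labelled Early Immature Neuron (young neurons) and 9 labelled Precursor (precursors), of 85 cells in all. Membership was taken from the stage label of each cell, and repeat libraries of the same cell were left out. All cells came from C57BL/6 mice. They were picked by hand from dissociated epithelium, their poly(A) RNA was copied with oligo(dT) and amplified by PCR, and sequencing libraries were made with a kit for DNA, which does not keep the strand. The other 3 stages are Progenitor (11 cells), Late Immature Neuron (13) and Mature Neuron (25). No animal is named for any cell, and each stage is therefore treated as 1 sample, without a test or p-value between stages. Each SD is the spread over cells. How stages were assigned is not stated in the labels, and the same transcriptomes may have been used for it.

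Olfactory sensory neurons are replaced throughout life from basal cells. Dividing cells pass through a committed precursor stage. The neuron that follows extends an axon to the olfactory bulb while it settles on an odorant receptor gene. Mature neurons detect odorants in cilia, where a receptor acts through the G protein subunit encoded by Gnal to raise cyclic AMP and open cyclic nucleotide gated channels.

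Levels are FPKM (fragments scaled by transcript length and by the number of mapped fragments), and differences are those of mean log2(FPKM + 1) over cells, Early Immature Neuron minus Precursor. The scale understates differences of weakly expressed genes. A gene was called detected in a cell where its FPKM reached 1. The median number of detected genes was 4117 (2862 to 6409) in Early Immature Neuron and 3872 (3508 to 5158) in Precursor cells. The spacing of low values gave the depth: 1 FPKM of a 1 kb transcript corresponded to a median of 5.69 fragments (0.736 to 9.83) in young neurons and 6.85 (4.99 to 8.98) in precursors. The median share of the FPKM sum taken by mitochondrial genes was 44.1% in young neurons and 37.4% in precursors. Single libraries were noisy: in the 3 Early Immature Neuron cells with a repeat (D187, D200 and D244), 44.8%, 42.2% and 30.5% of 4002 genes differed by at least 2 log2 units between both libraries of the cell. Cell names carry numbers that cluster in ranges, of which D316 to D434 holds 19 Early Immature Neuron and 5 Precursor cells. The labels do not call these ranges batches, and values within D316 to D434 are given where they matter. Where differences are averaged within ranges, each range with cells of both stages has the same weight. The range D213 to D274 has only 1 Precursor cell, D242, which then counts as much as all Precursor cells of another range.

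The levels of the markers Neurod1, Crabp2, Rtp1 and Gng13 are described first. They may have helped to set the stages, so they are no independent check of the label. Neurod1, a basic helix-loop-helix factor of neuronal differentiation, had a lowest, median and highest FPKM of 0, 0.19 and 67.0 in Early Immature Neuron cells and of 17.6, 174.2 and 327 in Precursor cells. It was detected in 3 of 27 Early Immature Neuron cells (11.1%, exact Clopper-Pearson 95% interval 2.35 to 29.2) and in all 9 Precursor cells (interval 66.4 to 100). These intervals cover counting error only. Early Immature Neuron cell D215, with the highest Neurod1 value of its stage, lay above 2 Precursor cells, and every other Early Immature Neuron cell lay below all of them. Crabp2, a cellular retinoic acid binding protein, had values of 0, 0.53 and 25.2 in Early Immature Neuron cells and of 0.41, 407 and 566 in Precursor cells. Precursor cells D178 and D398 held Crabp2 at 0.41 and 1.17 only, within the range of the neurons, while the lowest of the other 7 was far above all neurons.

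Rtp1, which carries odorant receptors to the cell surface, had a lowest, median and highest FPKM of 1.57, 146 and 638 in Early Immature Neuron cells and of 0.05, 0.35 and 93.3 in Precursor cells. It was detected in all 27 Early Immature Neuron cells (interval 87.2 to 100) and in 4 of 9 Precursor cells (44.4%, 13.7 to 78.8). The Precursor value of 93.3 came from D398, one of the cells with Crabp2 in the range of the neurons. Gng13, a G protein gamma subunit of the odorant cascade, had values of 0, 108 and 1586 in Early Immature Neuron cells and of 0, 1.03 and 154 in Precursor cells. It was detected in 24 of 27 Early Immature Neuron and 6 of 9 Precursor cells, and the groups overlapped. Within D316 to D434 the highest Precursor value of Gng13 was 1.63. Each of the 4 markers thus had a higher mean in the stage it marks, but several cells held markers of both. Early Immature Neuron cells D215, D244, D332 and D362 held Neurod1 or Crabp2 at an FPKM of 10 or more, and Precursor cells D178, D195, D242 and D398 held Rtp1 or Gng13 at that level.

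**Figure D1:**
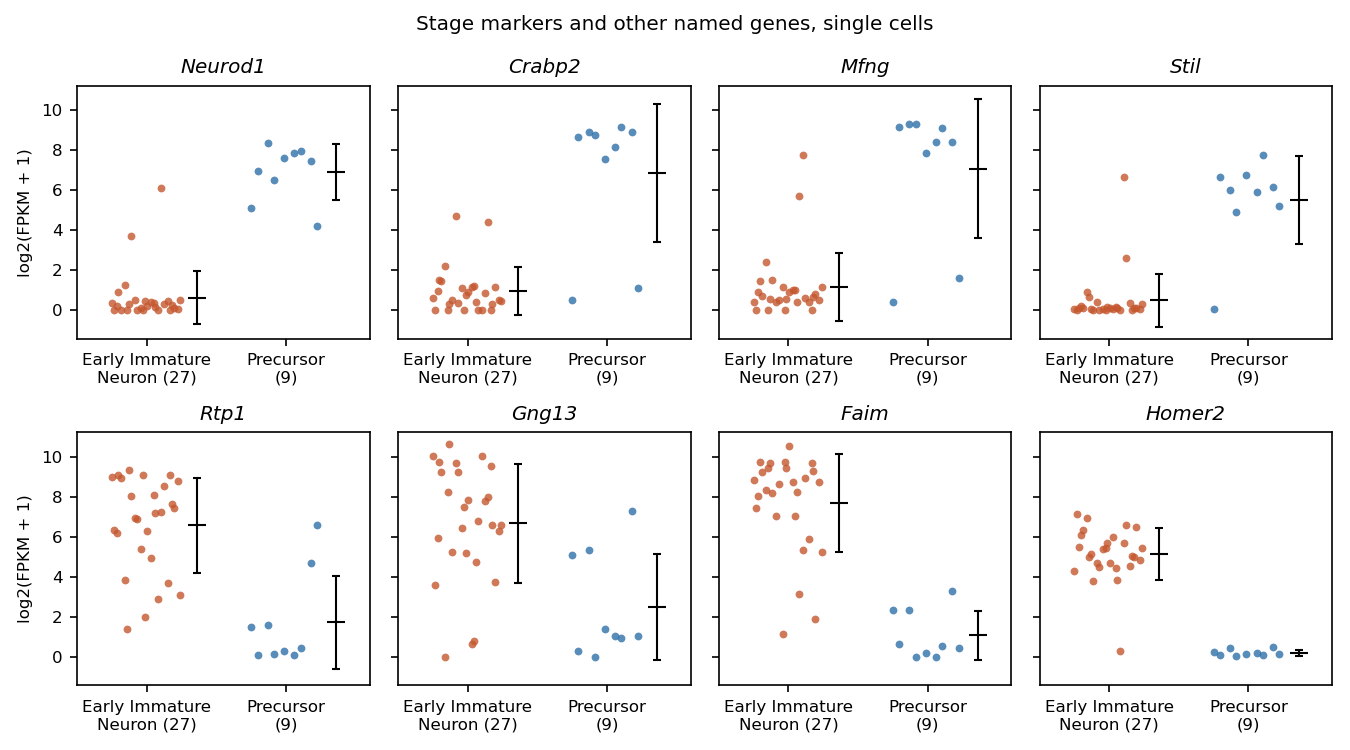
Level of 8 named genes in each cell, as log2(FPKM + 1); each point is a cell, Early Immature Neuron cells (27) left of Precursor cells (9) in each panel, with the mean and SD over cells beside the points. Neurod1 is low in 24 of 27 Early Immature Neuron cells and high in all 9 Precursor cells, and Homer2 is high in 26 of 27 Early Immature Neuron cells and near 0 in all Precursor cells.

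D178 lacked several genes of its stage, with an FPKM of 0.35 for Mfng, 0.06 for Stil and 0.65 for Impdh2. The same cell held genes of growing axons, with Gap43 at 706, Mapt at 316.9, Snap25 at 154 and Dcx at 103. D398 held Mfng at 2.01 and Mycl at 0.63, beside Vim at 910, the highest Vim value of its stage. These Precursor cells carried Neurod1 (33.1 and 17.6) at the lowest levels of their stage. D242 held Neurod1 at 174.2 and Crabp2 at 473 together with Rtp1 at 24.97, Gng13 at 154 and Omp at 378.5. It is the only Precursor cell of D213 to D274. All 23 cells of that range, over all stages, held Rtp1, Gng13 and Omp, and D242 had the lowest value of each. Mitochondrial genes took 78.6% of its FPKM sum, and its depth (4.99) was the lowest of its stage. The part of range and library in its values was not tested. Early Immature Neuron cell D215, of the same range, ran in the other direction. It held Neurod1 (67.0), Mfng (216), Cd24a (286) and Stil (102) with Omp at 4143 and Gng13 at 1045. Its library was the shallowest of both stages, with 0.736 fragments for 1 FPKM of a 1 kb transcript, and it carried the sustentacular cell gene Cbr2 above an FPKM of 100.

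Over all genes, 4002 of 32640 symbols were detected in 50% or more of the cells in one stage or the other and were compared. A gene could pass through either stage alone, which favours genes that are high in that stage. The counts of list members below are therefore a description. A difference of at least 2 log2 units, or 4-fold, was used as a rule of size in place of a test. By it 742 genes (18.5%) differed, 363 (9.07%) higher and 379 (9.47%) lower in Early Immature Neuron cells. The median difference of all compared genes was -0.26, with 1736 above 0 and 2266 below, so differences are read against that value. Within D316 to D434 all 363 and all 379 genes kept their sign, and 304 and 297 of them kept a difference of at least 2. That range holds 19 of the 27 Early Immature Neuron and 5 of the 9 Precursor cells that gave the calls. Its values are therefore no independent check. No gene separated the stages fully: 0 genes had every Early Immature Neuron cell above every Precursor cell (0%), and 0 had every one below (0%). No test was run to set beside these counts.

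**Figure D2:**
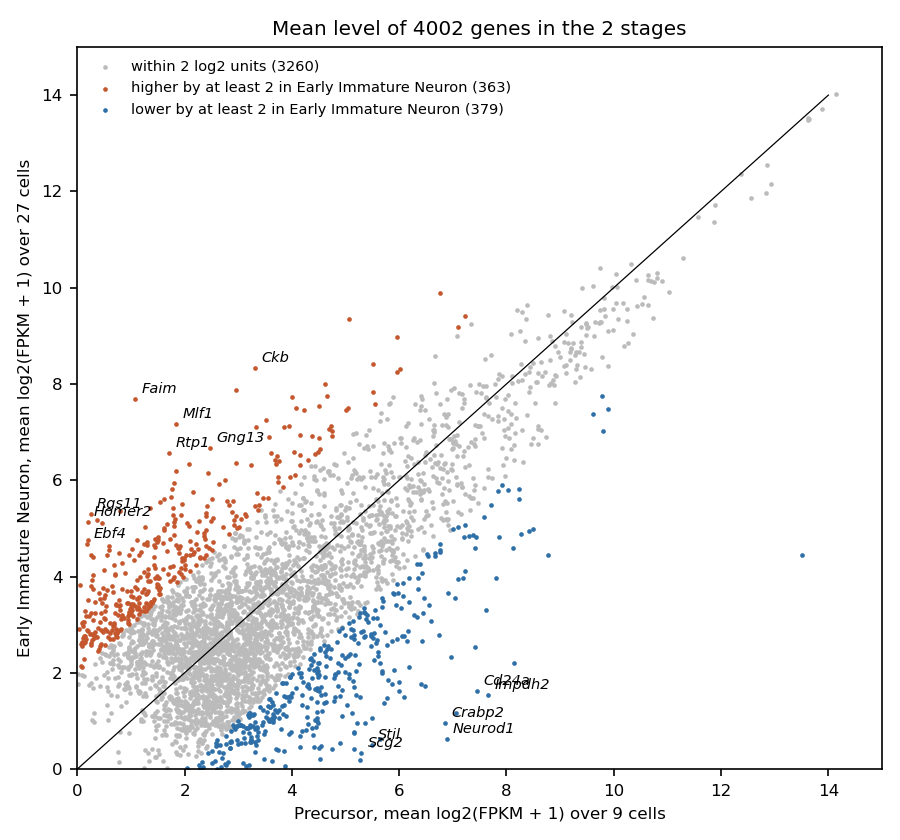
Mean log2(FPKM + 1) over 27 Early Immature Neuron cells (vertical axis) against the mean over 9 Precursor cells (horizontal axis) for 4002 genes; the line marks equal means. The 363 genes higher by at least 2 log2 units lie above it in orange and the 379 genes lower by at least 2 below it in blue, with some named genes written beside their points.

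A stricter look, chosen after the values were seen, asked for genes detected in most cells of one stage and nearly none of the other. Only 6 of 4002 genes (0.15%) were detected in at least 80% of Early Immature Neuron cells and in no Precursor cell. Homer2, a scaffold protein of postsynaptic signalling, and Scn9a, the voltage gated sodium channel of sensory neurons, were each detected in 26 of 27 Early Immature Neuron and 0 of 9 Precursor cells. Rgs11, a regulator of G protein signalling, was detected in 23 of 27 young neurons and 0 of 9 precursors. Ebf4, Clgn and Dbndd2 were each detected in 22 of 27 young neurons and 0 of 9 precursors. Ebf4 is a transcription factor of the Ebf family, and Clgn is a chaperone of the endoplasmic reticulum known from sperm development. With 9 cells, a count of 0 allows a share of up to 33.6% of Precursor cells by the same interval. In the opposite direction 4 genes (0.1%) were detected in at least 80% of Precursor cells and at most 10% of Early Immature Neuron cells. Among these were Stil (2 of 27 young neurons), Grasp (2 of 27) and Csrp1 (0 of 27), each detected in 8 of 9 precursors.

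Most compared genes of the neurogenic programme had lower levels in Early Immature Neuron cells. The list of precursor transcription factors and neurogenic genes has 23 members, of which 16 were compared. Some of these, such as Neurod1 (3 of 27 young neurons and 9 of 9 precursors), passed the filter through Precursor cells alone. Of the 16, 12 (75%) were lower by at least 2 log2 units and 1 was higher. Of all compared genes, 9.47% were lower by that much. The list had a median difference of -2.93 against -0.26 for all genes. Neurod1 averaged 0.63 ± 1.31 in Early Immature Neuron cells and 6.89 ± 1.40 in Precursor cells (log2 scale, SD, n = 27 and 9 cells), a difference of -6.26. Mycl, a member of the Myc family, averaged 1.50 ± 2.37 in young neurons and 6.09 ± 2.16 in precursors. The inhibitors of DNA binding Id3, Id1 and Id2, which block basic helix-loop-helix factors, were lower by 4.44, 3.94 and 2.60. Their relative Id4 was the exception and was higher by 2.67, with means of 5.16 in Early Immature Neuron and 2.49 in Precursor cells. The zinc finger factor Insm1, which promotes neurogenic divisions, differed by only -1.18 and was detected in 18 of 27 Early Immature Neuron and 8 of 9 Precursor cells. Sox11, a neuronal SoxC factor, had means of 1.90 in young neurons and 1.89 in precursors, while Sox4 of the same group was lower by 2.98.

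Retinoid and Notch related genes were few among those compared. Fabp5, a fatty acid binding protein that can also carry retinoic acid, averaged 4.82 ± 3.08 in Early Immature Neuron and 7.86 ± 2.13 in Precursor cells. Averaged within cell number ranges, its difference of -3.04 was -1.33, short of the rule of size. In that average Precursor cell D242, with Fabp5 at 4.48, stands alone for its range. Crabp1, the close relative of Crabp2, differed by -0.53, and by -2.19 in D316 to D434. Averaged within cell number ranges, Crabp1 differed by 2.34, with the opposite sign. This value leans on D242, which held Crabp1 at 2.17, against 1516 and 1345 in Early Immature Neuron cells D215 and D244 of its range. Crabp1 was detected in 22 of 27 Early Immature Neuron cells, up to an FPKM of 5833, and in 9 of 9 Precursor cells. Mfng, a glycosyltransferase that modifies Notch receptors, had a lowest, median and highest FPKM of 0, 0.59 and 216 in Early Immature Neuron cells and of 0.35, 343.2 and 643 in Precursor cells. It was below an FPKM of 10 in all Early Immature Neuron cells but D215 and D357, and above 200 in all Precursor cells but D178 and D398. Rbpj, the DNA binding partner of activated Notch, and Mib1, a ligase for Notch ligands, differed by -1.28 and -0.38, short of the rule of size.

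Cell cycle genes were lower in Early Immature Neuron cells, and in Precursor cells they were spread unevenly. Of 46 genes on the list, 16 were compared, and several of these passed the filter through Precursor cells alone. Examples are Cenpe (0 of 27 young neurons and 5 of 9 precursors) and Tpx2 (1 of 27 and 5 of 9). Of the 16, 10 (62.5%) were lower by at least 2 log2 units, against 9.47% of all compared genes. The list had 0 members higher by that much and a median of -2.61. Cdk4, the kinase of the G1 phase, averaged 4.59 ± 2.94 in Early Immature Neuron and 8.12 ± 1.22 in Precursor cells, and all 9 Precursor cells held it above an FPKM of 40. Mitotic genes varied widely among Precursor cells. Cenpa, the centromeric histone, was detected in 3 of 27 Early Immature Neuron and 5 of 9 Precursor cells, with highest FPKM of 2.57 in young neurons and 936 in precursors, and its difference of -4.07 was -0.91 with medians over cells. Ube2c, a ubiquitin conjugating enzyme of the anaphase promoting complex, was detected in 16 of 27 Early Immature Neuron cells, up to 192.2 in D357, and in 9 of 9 Precursor cells, from 1.82 in D383 to 2518 in D179. The replication clamp gene Pcna was not lower (means of 3.27 in young neurons and 2.70 in precursors). Among 7 compared cell cycle exit genes, 3 (42.9%) were lower by at least 2, again against 9.47% of all compared genes. Gadd45a, a stress and growth arrest gene, was lower by 4.74 and detected in 11 of 27 Early Immature Neuron and 8 of 9 Precursor cells. Cdkn1b, the inhibitor p27, was lower by 2.58 and was near 0 in Precursor cell D374 (0.16).

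Genes that build new centrioles were among the largest differences. Multiciliated olfactory neurons need many centrioles as basal bodies. Stil, which recruits the centriole cartwheel, had a lowest, median and highest FPKM of 0, 0.07 and 102 in Early Immature Neuron cells and of 0.06, 63.5 and 217 in Precursor cells. Only D394 and D215 held it among Early Immature Neuron cells, and only D178 lacked it among Precursor cells. Plk4, the kinase that starts centriole duplication, averaged 2.0 ± 2.49 in young neurons and 5.67 ± 2.63 in precursors. Its scaffold Cep152 was detected in 3 of 27 Early Immature Neuron and 7 of 9 Precursor cells, a difference of -4.38. Of the 9 compared members of this list 4 (44.4%) were lower by at least 2, against 9.47% of all compared genes, and 0 higher. The list median was -1.65, and in D316 to D434 it was -2.43. The centrin gene Cetn3, a component of finished centrioles, differed by 0.44.

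Other genes at the bottom of the ranking had varied functions. Impdh2, the rate-limiting enzyme of guanine nucleotide synthesis, averaged 1.54 ± 1.8 in Early Immature Neuron and 7.66 ± 2.67 in Precursor cells. Ifitm2, an interferon induced membrane protein, averaged 2.21 ± 2.61 in young neurons and 8.15 ± 0.95 in precursors, and its lowest Precursor value was 122. Cd24a, a surface glycoprotein of immature cells, averaged 1.62 ± 2.49 in young neurons and 7.45 ± 2.39 in precursors. The secreted growth factor gene Mdk was detected in 8 of 27 Early Immature Neuron cells at no more than 2.58, and in Precursor cells it reached 618. Tmem98, a membrane protein, was detected in 0 of 27 Early Immature Neuron and 7 of 9 Precursor cells. Scg2, a secretogranin of dense core vesicles, was detected in 1 of 27 young neurons and 6 of 9 precursors. Nnat, a small imprinted membrane protein, kept values in part of the neurons: it was detected in 14 of 27 Early Immature Neuron cells, up to 348, and in all 9 Precursor cells, from 27 to 832.

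Receptor export and odorant transduction genes were higher in Early Immature Neuron cells, and their levels varied widely among cells. Higher by at least 2 log2 units were all 3 compared export genes and 14 of 17 transduction genes (82.4%). The share of all compared genes was 9.07%, and the medians were 3.25 for export and 2.64 for transduction genes. Rtp1 averaged 6.56 ± 2.39 in Early Immature Neuron and 1.71 ± 2.34 in Precursor cells, a difference of 4.85. Its relative Rtp2 was higher by 3.06, and Ric8b, the exchange factor for the olfactory G protein, by 3.25. Omp, the olfactory marker protein, ranged from 0 to 6224 in Early Immature Neuron cells and from 0 to 378.5 in Precursor cells. Only Precursor cells D178, D195 and D242 held Omp, at 11.7, 14.2 and 378.5, and none of the 5 Precursor cells of D316 to D434 did.

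Within the cascade the size of the difference varied. Cnga2, the main subunit of the cyclic nucleotide gated channel, averaged 4.64 ± 3.47 in Early Immature Neuron and 0.59 ± 0.85 in Precursor cells, with highest FPKM of 1059 in young neurons and 2.84 in precursors. Gnal, the G protein alpha subunit, was higher by 2.64. The adenylyl cyclase gene Adcy3 was higher by only 0.99, and 14 of 27 Early Immature Neuron and 2 of 9 Precursor cells held it. Ano2, the chloride channel that amplifies the response, and Pde4a, a phosphodiesterase, were each detected in 0 of 9 Precursor cells, and in 15 and 16 of 27 Early Immature Neuron cells. The G protein genes of immature cells behaved differently. Gng8 had means of 4.54 in young neurons and 4.26 in precursors. Gnas, the stimulatory alpha subunit of most cells, was lower by 2.48 and was detected in 6 of 27 Early Immature Neuron and 9 of 9 Precursor cells. Gng13 shares 51.4% of its exon bases with Chtf18 on the opposite strand, whose median FPKM was 2.66 in young neurons and 0.93 in precursors. Reads of both genes cannot be told apart where they overlap.

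Promoter sequences were taken from RefSeq (GRCm38.p6, the same build as the deposited annotation) because Ebf factors, which bind the core CCCNNGGG, are among the genes that differed. The core reads the same on both strands. It was searched in windows from 250 bases before to 50 after each gene's start. The stretches below show it in capitals, with up to 50 bases on each side, for 3 genes of the odorant cascade and receptor export and for Homer2, written on the gene's own strand.
Gng13, chr17:25717027-25717135, plus strand: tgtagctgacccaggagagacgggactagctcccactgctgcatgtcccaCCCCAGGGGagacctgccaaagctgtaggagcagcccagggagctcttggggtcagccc
Cnga2, chrX:71991733-71991840, plus strand: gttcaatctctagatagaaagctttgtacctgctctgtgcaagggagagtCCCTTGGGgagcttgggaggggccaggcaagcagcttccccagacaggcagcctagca
Rtp2, chr16:23930939-23931044, minus strand: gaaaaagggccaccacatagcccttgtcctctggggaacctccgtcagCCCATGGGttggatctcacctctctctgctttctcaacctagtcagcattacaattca
Homer2, chr7:81706994-81707101, minus strand: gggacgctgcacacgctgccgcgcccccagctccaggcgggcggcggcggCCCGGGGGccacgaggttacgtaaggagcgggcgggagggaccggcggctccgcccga

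The 9 capitals of Gng13 are 2 overlapping matches. Of all 32851 windows, 13.7% held the core. Counted by gene, where any window of the gene suffices, 15.4% of all 27025 genes with a window held it. Of the compared genes that had a window 20.4% did (601 of 2939). It was found for 28.2% of the genes higher by at least 2 and for 23.8% of those lower by at least 2. Among the 17 transduction and export genes higher by at least 2, 11 had a window and 5 of these held it (Ano2, Cnga2, Gng13, Pde4a and Rtp2). A match is a run of letters and says nothing of binding, and no binding was measured.

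Among 15 compared regulators of receptor choice, 5 (33.3%) were higher by at least 2 log2 units and 2 (13.3%) were lower. Of all compared genes 9.07% were higher and 9.47% lower, so the lower count was near the background. The list median was 1.36 (0.77 in D316 to D434). The Ebf family accounted for most of the higher members. Ebf4 had a lowest, median and highest FPKM of 0, 47.3 and 261.4 in Early Immature Neuron cells and of 0, 0.05 and 0.47 in Precursor cells. Ebf1 averaged 6.40 ± 1.69 in young neurons and 3.76 ± 1.82 in precursors, and Ebf3 was higher by 2.19 (1.51 in D316 to D434). Ebf2 averaged 7.55 in Early Immature Neuron and 6.41 in Precursor cells. In D316 to D434, 2 members of this list were higher by at least 2 (Ebf1 and Ebf4) and 2 lower. Of all genes compared there, 12.1% were higher and 13.8% lower by that much. Lhx2, the homeobox factor that binds receptor enhancers, averaged 7.05 in young neurons and 8.64 in precursors, and Emx2, which also acts at receptor genes, 6.29 in young neurons and 4.36 in precursors. The demethylase Kdm1a, which is needed to start receptor expression, averaged 3.34 in Early Immature Neuron and 5.34 in Precursor cells, a difference of -2.0.

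Receptor RNA itself differed in amount between the stages. The sum over all Olfr genes had a lowest, median and highest FPKM of 9.83, 1076 and 9622 in Early Immature Neuron cells and of 0.77, 13.1 and 123 in Precursor cells. Only D347 and D357 among the Early Immature Neuron cells fell under an FPKM of 50. The highest Precursor sum, in D319, was almost all from 1 gene at 120. Olfr genes that reached an FPKM of 10 numbered 3.89 ± 3.85 per Early Immature Neuron cell and 0.333 ± 0.5 per Precursor cell. Those that reached an FPKM of 1 numbered 7.22 per Early Immature Neuron and 2.56 per Precursor cell. Without entries from assembled transcripts they numbered 0.889 per Early Immature Neuron and 0.667 per Precursor cell, so this difference depended on those entries.

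The unfolded protein response takes part in receptor choice through Perk and Atf5. Of 15 compared members, 2 (13.3%) were higher by at least 2 log2 units and 0 lower, with a median of 0.76. The share of all compared genes higher by that much was 9.07%, so the count was near the background. Ddit3, a factor induced by endoplasmic reticulum stress, was detected in 18 of 27 Early Immature Neuron and 0 of 9 Precursor cells and reached 1319. Ppp1r15a, which reverses the translation block, was higher by 2.41, and by 0.57 when averaged within cell number ranges. With medians over cells the difference of Ddit3 was 1.09. Hspa5, the main chaperone of the endoplasmic reticulum, had a mean of 5.13 in young neurons and of 5.13 in precursors, and Xbp1 and Calr differed by -0.66 and 0.02. Atf5 averaged 7.83 ± 1.47 in young neurons and 5.52 ± 1.97 in precursors, a difference of 2.32 that was 1.49 in D316 to D434. In that range the list held 6 members higher by at least 2, against 12.1% of all genes compared there, and a median of 1.70. Without Precursor cell D319 the median over all cells was 0.127.

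**Figure D3:**
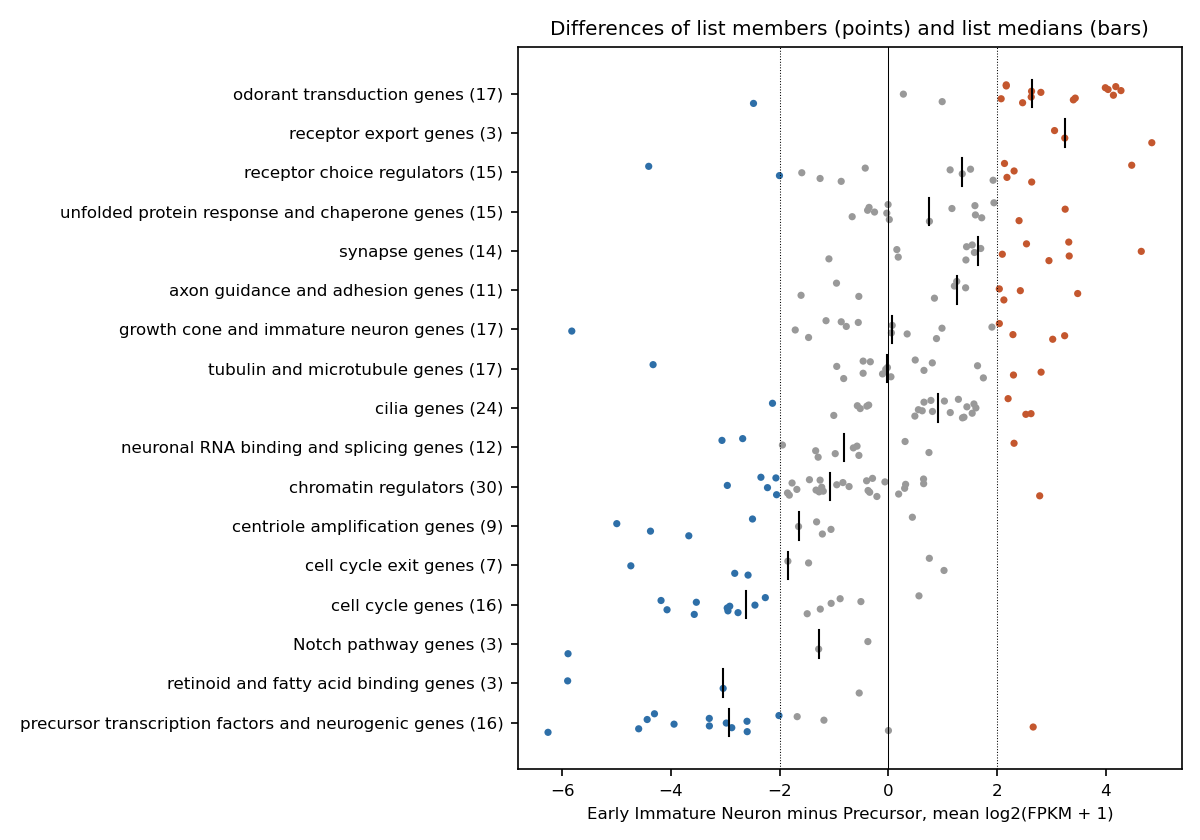
Difference of each compared list member (points), Early Immature Neuron minus Precursor in mean log2(FPKM + 1), by gene list with the number of members in brackets; bars mark list medians and dotted lines the rule of 2 log2 units. Transduction and export genes lie mostly to the right and precursor, cell cycle and centriole genes mostly to the left.

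Growth cone and axon genes were mixed, and some reached high levels in Early Immature Neuron cells. Of 17 compared growth cone genes, 4 (23.5%) were higher by at least 2 and 1 (5.88%) was lower. Of all compared genes 9.07% were higher and 9.47% lower. The list median was 0.07 (-0.05 when cells were rescaled on protein coding genes, and 0.65 in D316 to D434). Gap43, a membrane protein of growth cones, had a lowest, median and highest FPKM of 0, 360 and 2155 in Early Immature Neuron cells and of 0, 38.8 and 706 in Precursor cells. Its difference of 3.03 was 1.601 when averaged within cell number ranges. Dcx, a microtubule binding protein of migrating neurons, averaged 4.76 ± 2.65 in young neurons and 1.51 ± 2.27 in precursors. Cd24a was the lower member. Mapt, the axonal protein tau, was detected in 19 of 27 Early Immature Neuron and 2 of 9 Precursor cells. Most tubulins differed little: Tuba1a averaged 10.01 in young neurons and 9.96 in precursors, and Tubb3 averaged 8.62 in young neurons and 9.44 in precursors. Tuba4a was the only member of that list lower by at least 2 (by 4.33), and it shares 30.8% of its exon bases with Stk16 on the opposite strand. Of 11 compared guidance and adhesion genes, 4 (36.4%) were higher by at least 2, against 9.07% of all compared genes, and 0 lower. Cntn4, an adhesion protein, averaged 4.45 ± 2.74 in Early Immature Neuron and 0.96 ± 2.02 in Precursor cells. Robo2, a receptor for Slit proteins, was higher by 2.43.

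Synapse genes were higher in Early Immature Neuron cells. Of 14 compared members 6 (42.9%) were higher by at least 2 log2 units, against 9.07% of all compared genes, and 0 lower. The list median was 1.64. In D316 to D434 10 were higher by that much, against 12.1% of all genes compared there, with a median of 2.47. Snap25, a SNARE protein of the plasma membrane, was detected in 22 of 27 young neurons and 5 of 9 precursors. Syt11 was higher by 3.33 and Rab3b, a vesicle GTPase, by 3.32. The vesicle protein gene Syp ran the other way, with means of 1.50 in young neurons and 2.59 in precursors.

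Neuronal RNA binding genes split. Elavl4, which stabilises neuronal transcripts, was lower by 3.06 and was detected in 19 of 27 Early Immature Neuron and 9 of 9 Precursor cells. Ptbp2, a splicing repressor of developing neurons, was lower by 2.68. Celf3 was higher by 2.32 (1.53 averaged within cell number ranges), while Elavl3 averaged 6.07 in young neurons and 5.32 in precursors.

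At the top of the ranking stood genes that are not markers of the cascade. Faim, an inhibitor of Fas driven apoptosis, had a lowest, median and highest FPKM of 1.16, 399 and 1477 in Early Immature Neuron cells and of 0, 0.44 and 8.87 in Precursor cells. Its mean difference of 6.60 was the largest of all compared genes that were higher, and 24 of 27 Early Immature Neuron cells lay above the highest Precursor cell. Ckb, the brain creatine kinase, averaged 8.33 ± 2.17 in young neurons and 3.32 ± 2.56 in precursors. Mlf1, a 14-3-3 binding protein, averaged 7.17 ± 2.87 in young neurons and 1.84 ± 2.04 in precursors, and Precursor cell D319 held it at 107. Ssbp2, a partner of LIM domain binding proteins, averaged 7.88 ± 3.0 in young neurons and 2.96 ± 3.01 in precursors. Calb2, the calcium binding protein calretinin, was detected in 25 of 27 Early Immature Neuron cells and in 1 Precursor cell, D374, at 21.7.

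**Figure D4:**
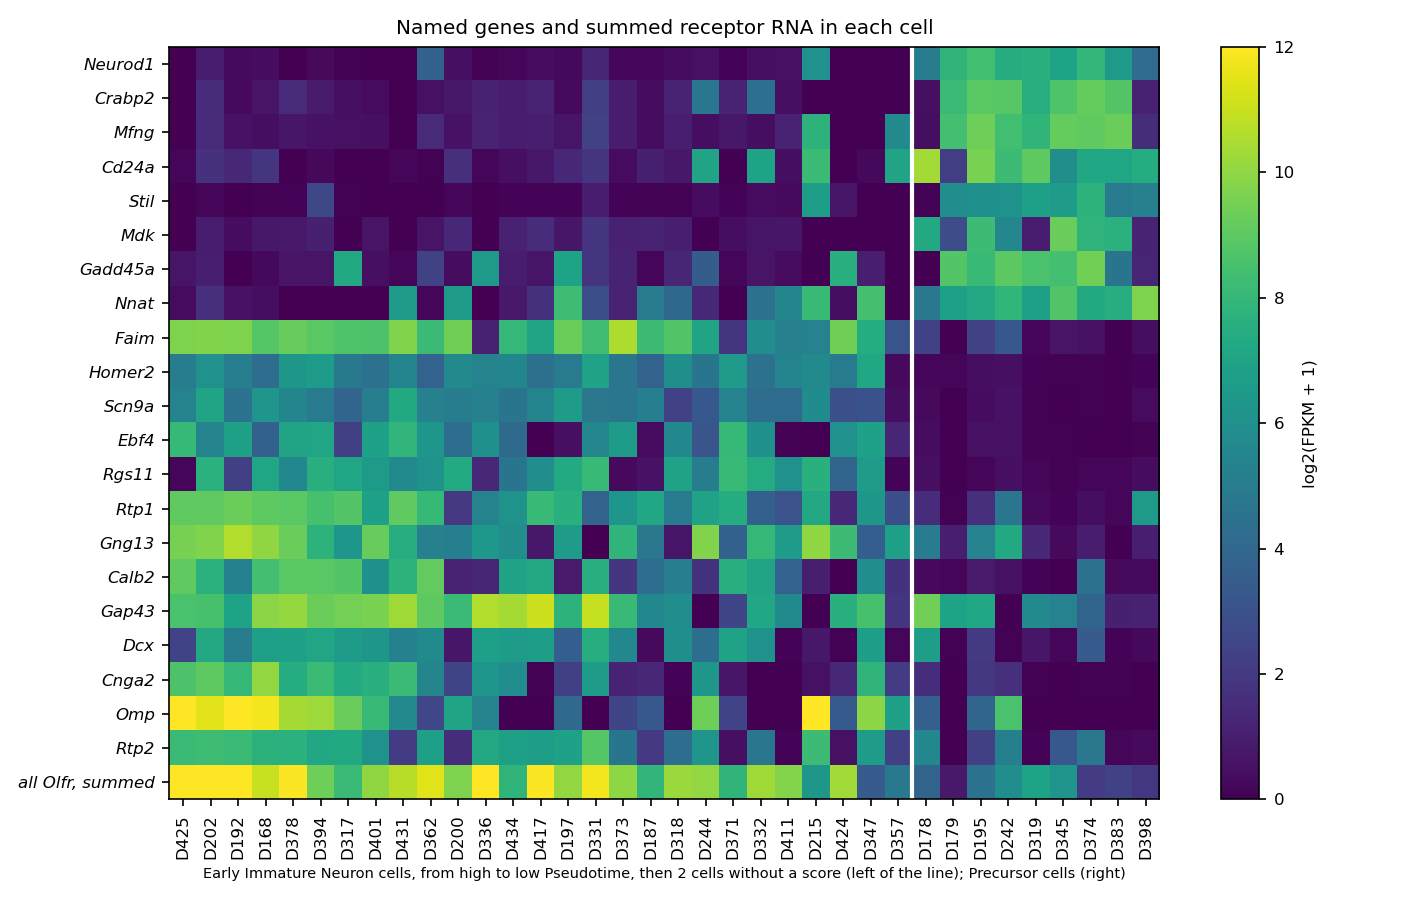
Levels of 21 named genes and of the sum over all Olfr genes, as log2(FPKM + 1) with the colour scale ending at 12, in each of 27 Early Immature Neuron cells (left of the white line, ordered by the authors' Pseudotime from high to low, then 2 cells without a score) and 9 Precursor cells (right). The upper 8 rows are high mainly on the right and the other rows mainly on the left, with exceptions such as columns D178, D242, D398 and D215.

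Most differences of cilia genes were small. Of 24 compared members 18 lay above 0 and 6 below, with a median of 0.92 (0.60 in D316 to D434). By the rule of size 3 (12.5%) were higher and 1 was lower, near the 9.07% and 9.47% of all compared genes. Tub, a protein that brings receptors into cilia, was detected in 17 of 27 Early Immature Neuron and 1 of 9 Precursor cells. Bbs4, of the BBSome transport complex, was also detected in 17 of 27 young neurons and 1 of 9 precursors, and its difference of 2.53 was 1.49 in D316 to D434. The transport gene Ift88 was higher by 1.29 and Ift27 was lower by 0.57, both short of the rule.

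Among 30 compared chromatin regulators, 24 lay below 0 and 6 above, with a median of -1.07 against -0.26 for all compared genes. By the rule of size 5 (16.7%) were lower, against 9.47% of all compared genes, and 1 was higher. Lbr, the lamin B receptor that tethers heterochromatin to the nuclear envelope, was detected in 1 of 27 Early Immature Neuron and 6 of 9 Precursor cells and was lower by 2.96. The histone methyltransferase Suv39h1 was lower by 2.06 and the corepressor Trim28 by 2.07. The chromatin protein gene Hmgn2 averaged 7.38 ± 1.21 in young neurons and 9.60 ± 1.32 in precursors, and it belongs to a family with many near-identical copies in the genome. Dnmt3a, a DNA methyltransferase, was the higher member, with means of 3.71 ± 2.49 in Early Immature Neuron and 0.92 ± 1.16 in Precursor cells. Ezh2, the Polycomb methyltransferase of the progenitor list, was lower by 1.65, short of the rule. In D316 to D434 its difference was -2.39, past the rule. Vim, an intermediate filament gene of the same list, was higher by 3.10.

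Genes of general cell functions differed less. Ribosomal protein genes had a median difference of -0.60 over 102 members, of which 97 were lower and 0 passed the rule in either direction. Housekeeping genes had a median of -0.48 over 18 members, with Gapdh at means of 8.90 in young neurons and 8.85 in precursors. The mitochondrial genome genes had a median of -0.16 over 21 members. When each cell was rescaled to the same sum over genes other than mitochondrial and Olfr genes, the median of all compared genes was -0.36.

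Placed among all stages, the genes fell into several courses. In developmental order (Progenitor, Precursor, early, late, mature), the mean log2 levels of Neurod1 were 4.89, 6.89, 0.63, 0.26 and 0.15. Gap43 had means of 0.76, 4.51, 7.54, 1.64 and 0.16, and Vim of 3.60, 4.65, 7.75, 1.87 and 1.21. Both were thus highest in Early Immature Neuron cells. Rgs11, with 1.07, 0.25, 5.30, 3.03 and 1.91, and Calb2, with 0.78, 0.79, 5.36, 3.17 and 3.0, also had their highest mean there. Mapt had means of 0.18, 1.17, 3.98, 0.40 and 0.73. Cnga2 had means of 0.13, 0.59, 4.64, 8.62 and 9.12, and Omp of 0.75, 1.8, 5.94, 12.37 and 12.86, so both had higher means in the stages that follow. Homer2 had means of 1.06, 0.19, 5.13, 4.94 and 4.26, and its later stages did not differ beyond the spread of cells.

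**Figure D5:**
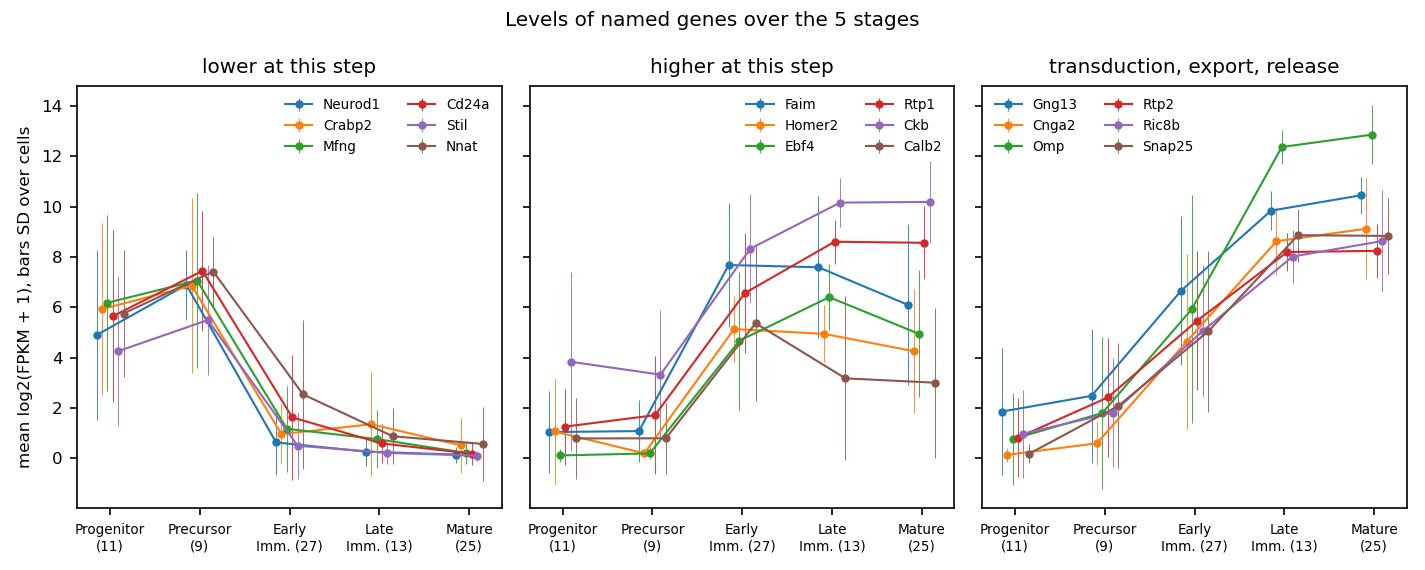
Mean log2(FPKM + 1) of 18 named genes in the 5 stages in developmental order, with the number of cells in brackets and bars for the SD over cells; points are shifted sideways so that bars can be read. Neurod1 and Crabp2 have lower means in Early Immature Neuron than in Precursor cells, Faim and Homer2 have their highest mean in Early Immature Neuron cells, and Omp and Cnga2 have higher means in the later stages.

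The Early Immature Neuron cells varied among themselves along the authors' Pseudotime, a score without unit given for 25 of them, from 10.1 in D424 to 35.4 in D425. How the score was made is not given in the sources used here, and it may rest on these genes, so its relations are a description without a p-value. Over these 25 cells, Spearman's rho with log2 level was 0.86 for Cnga2, 0.74 for Snap25 and 0.74 for Rtp1. It was 0.68 for Cntn4, 0.60 for Omp and 0.53 for Gap43. Crabp1 ran the other way at -0.82: D424, D411 and D318 held it at 5214, 5378 and 5833, and D425 at 0. The count of Olfr genes that reached an FPKM of 10 had a rho of -0.58, and the summed Olfr FPKM one of 0.50. The number of detected genes also had a rho of 0.75 with the score, and its part in these relations was not tested. Homer2 (0.01) and Gng13 (0.30) hardly followed the score. The only Precursor cell with a score was D242, at 7.14, below all Early Immature Neuron cells.

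Markers of other cell types were looked at in the same cells, and none of the 7 lists had a member detected in enough cells to be compared. Sustentacular markers had a summed FPKM of 0 to 5169 in Early Immature Neuron and of 0.35 to 1493 in Precursor cells, highest in young neuron D244 and precursor D242, and 13 of 14 members were detected in some young neuron and 10 in some precursor. Horizontal basal cell markers stayed at 0 to 32.3 in young neurons and 0 to 21.6 in precursors, and their defining factor Trp63 was at 0 in all cells. Blood and immune markers reached 2224 in young neuron D357 and 344.1 in precursor D179. D357 was a library apart: mitochondrial genes held 10.3% of its FPKM sum, Homer2 stood at 0.24 in it, and it carried Cd52 and Igkc above an FPKM of 100. The highest sums of gland and microvillous, glial, stromal and endothelial, and respiratory markers were 1045, 117, 185 and 60.3 in young neurons. In precursors they were 72.7, 327, 6.62 and 9.04. A cell was set aside where a counted marker of these lists stood at 100 or more. Krt8, Krt18, Notch2 and Sox9 were among the markers not counted. Precursor cell D374, with the glial sum of 327, was kept, so the remaining cells are not free of markers of these lists. Without the 9 cells set aside, 20 Early Immature Neuron and 7 Precursor cells remained. Among these, 14 of 17 transduction genes were higher and 11 of 16 precursor genes lower by at least 2. Of all 4269 genes compared in these cells, 459 were higher and 438 lower by that much.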

How the data were processed

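Single-cell RNA was sequenced as described above, and each library holds 1 cell. Per the submitters' processing notes, reads were handled on mm10 with Cufflinks 2.2.1, TopHat2 2.0.14, cutadapt 1.2.1, CASAVA 1.8.2 and Trim Galore. Settings and scaling were not given in the sources used here. FPKM were deposited by the authors for 32975 entries in 93 libraries. The authors also deposited an annotation with genomic positions (other values) and a table of receptors per cell with FPKM and a Pseudotime score without unit. All 134 receptor values of that deposited table equalled those of the gene table.

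Entries were joined by symbol (32640). Repeat libraries served only for technical error. Genes whose FPKM reached 1 in 50% or more of the cells in one stage or the other were compared. Means of log2(FPKM + 1), with a pseudocount of 1, were subtracted, and 2 log2 units made a call. Lists were summarised by counts and medians. Named genes were the 4 markers, the 12 highest and 12 lowest annotated genes of the same sign in D316 to D434, and up to 4 members per list with the largest differences; some genes that met this rule are not reported here, and other list members were named to complete a family or pathway. The members and the 28 lists were chosen with earlier results of these data known. Depth was read from the spacing of low values in 2284 single exon genes. PCR copies are not independent molecules. Of 87 named genes, 26 share exon bases with another entry, and reads of both cannot be told apart without strand. Some genes, such as Hmgn2, have near-copies. Calculations used Python 3.11.15, numpy 2.4.6, pandas 2.3.3 and scipy 1.17.1, and were tested on simulated data. Alternatives were another pseudocount, filter, scaling, average or set of cells.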

Additional observations from a re-analysis of the deposited data

Results flagged for a closer look

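For 92 gene values and cell measures, the 9 Precursor cells were searched for a single cell far from the other 8, by the gap to the nearest value over the whole range. Chance flags about 1 in 20 such groups where values are independent and normally spread. Many values here lie near 0, so that rate need not hold. The 15 of 92 groups picked out, all of them genes, are therefore not set against it. D178 stood low for Impdh2 (an FPKM of 0.6529), Stil (0.05681) and Polr2a (0.2427), and high for Mapt (316.9) and Tub (13.45). D398 stood low for Mycl (0.6274) and high for Bbs4 (74.93). D242 stood low for Fabp5 (4.481) and high for Omp (378.5) and Cntn4 (74.02). D374 stood low for Cdkn1b (0.158) and high for Calb2 (21.67). D319 stood high for Mlf1 (107.2), D179 for Ric8b (122.9) and D195 for Rab3b (128.8).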

How the results depend on the processing

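The number of genes higher and lower by at least 2 log2 units was 363 and 379. It was 623 and 770 with a pseudocount of 0.1, 57 and 64 with a pseudocount of 10, and 654 and 1034 with medians in place of means over cells. Rescaling without mitochondrial and Olfr genes gave 502 and 572, and rescaling on protein coding genes, chosen after the data were seen, gave 575 and 642. Leaving out 1 cell at a time gave 330 to 405 higher and 366 to 495 lower genes. Leaving out the 9 cells set aside for markers of other cell types gave 459 and 438. The pseudocount sets how far a gene near 0 can differ.

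List medians kept their sign wherever they moved by more than the spread. With a pseudocount of 0.1 the medians were -4.39 for precursor, 4.08 for transduction and -2.62 for centriole genes. With a pseudocount of 10 they were -1.57 for precursor, -1.38 for cell cycle, -0.73 for centriole and -0.55 for chromatin genes. With medians over cells they were -4.67 for precursor, -2.37 for Notch, -4.55 for cell cycle exit, 2.16 for axon guidance, -3.50 for centriole and -1.99 for chromatin genes. In D316 to D434 the centriole median was -2.43. The causes of these shifts were not tested. Without entries from assembled transcripts, Early Immature Neuron cells held a mean of 0.889 detected Olfr genes and Precursor cells 0.667, against 7.22 in Early Immature Neuron and 2.56 in Precursor cells with them. Of 73 named genes past the rule of size, 36 stayed past it in every alternative and 0 changed sign.

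Depth limits the low values: in D215 1 fragment of a 1 kb transcript already exceeds an FPKM of 1, so absence of a weakly expressed gene there means little. The spread between repeat libraries of a cell limits every value of a single cell. With 9 Precursor cells in unknown animals, stage and animal cannot be told apart. No paired analysis was possible because each cell has 1 stage, and the replicate numbers only name cells.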

Other observations

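The lowest difference of all compared entries belonged to Gm23134, a model of 87 bases on the minus strand of chromosome 2 (157562361 to 157562447, mm10), at -9.06. It lies wholly within an exon of Nnat on the opposite strand, and the libraries carry no strand. Its FPKM was 0 in 17 of 27 Early Immature Neuron cells and reached 9615 in D197, and it ranged from 3117 to 37072 in the 9 Precursor cells, where Nnat ranged from 27 to 832. Early Immature Neuron cell D215 held Nnat at 273 with this entry at 0, and D244 held Nnat at 1.63 with this entry at 2511. The entry was looked at after its value was seen.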
